A study of Mus musculus with 5 samples.

Results

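The genes described here are the ligands and receptors of axon guidance. They comprise the semaphorins with their plexin and neuropilin receptors, the ephrins with the Eph receptors, the netrins with Dcc, Neo1 and the Unc5 receptors, and the Slits with the Robo receptors. They were picked by symbol from the autosomal protein-coding genes of the GRCm38 mouse annotation. Taken were genes whose names begin with Sema, Plxn, Epha, Ephb, Efna, Efnb, Unc5, Robo or Slit, or that are Ntn1, Ntn3, Ntn4, Ntn5, Dcc, Neo1, Nrp1 or Nrp2, with the Slitrk genes left out. This rule reads no peaks, but the genes, like the gene lists used below, were chosen with earlier results of these data known. The rule found 69 of 20807 genes, comprising 20 semaphorins, 7 plexins, 2 neuropilins, 7 ephrins, 14 Eph receptors, 4 netrins, 6 netrin receptors, 3 Slits and 4 Robos. The other 2 genes, Unc50 and Unc5cl, match by their letters only and are not known as guidance receptors. No library had a peak near the starts of either.

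These families carry signals between cells that touch or lie close together. Semaphorins bind plexins, with neuropilins as co-receptors for most of the secreted ones, ephrins bind Eph receptor tyrosine kinases on neighboring cells, netrins attract through Dcc and repel through Unc5 receptors, and Slits repel through Robos. They are best known for steering growing axons, and they also act in blood vessel patterning and in the sorting of cells at tissue borders. H3K27me3 is the trimethylated form of a histone H3 lysine, laid down by the Polycomb repressive complex and found over the starts of many developmental genes that a cell type keeps silent.

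H3K27me3 was profiled by ChIP-seq in cultured dermal fibroblasts from wild-type (WT) mouse skin, with 2 libraries from E14 and 2 from E17 embryos. E14 and E17 are embryonic days 14 and 17 as the sample labels give them, and the published study calls the earlier stage E14.5 and the later one E18.5. All 4 libraries are of the same genotype and antibody, the study's mice were of C57BL/6 background, no treatment or number of embryos is given for these libraries, and it is not said whether the 2 libraries of a stage came from separate cultures. The question of the comparison was how the mark differs between the early dermal progenitors and the later fibroblasts.

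Each library has its own list of peaks, a peak being a stretch of the genome with more recovered fragments than the surrounding sequence. A gene was scored in each library by the peaks within 3000 bp of any of its annotated start sites, as present or absent and by covered length, the number of bases in that window that lie under peaks. Covered length cannot exceed the window, so the part of a peak that lies beyond it is not counted. The peak lists hold 21546 and 16574 peaks at E14 and 10429 and 7107 at E17, so every count over genes has to be read beside the same count over all genes. They carry no read counts, so depth cannot be read from them, and a missing peak means only that no stretch passed that list's threshold. The cells were assayed in bulk, so that fewer cells carrying the mark and less of it per cell cannot be told apart. As a check of the cell type, none of 9 genes that mark dermal fibroblasts, such as Col1a1 and Pdgfra, had a peak in any library. Peaks in all 4 libraries lay at 2 of 5 keratinocyte genes (Epcam and Cdh1), 1 of 4 endothelial genes (Kdr), 1 of 4 melanocyte or Schwann cell genes (Sox10) and 2 of 3 muscle genes (Myod1 and Des), at none of 3 immune genes, and Myf5, the remaining muscle gene, had peaks in the E14 libraries only.

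The sequences below are 250 bases upstream of RefSeq start sites (GRCm38.p6), written 5′ to 3′ on the strand of the gene in lower case, with each CpG dinucleotide in capitals. They are shown because they span the ways in which these genes were marked. Of the 69 genes, 59 have such a sequence in the RefSeq table used. The first, of the Eph receptor Epha8, lay wholly under a peak in all 4 libraries (chr4:136956817-136957066, minus strand) and holds 46 CpG. The second, of the ephrin Efna3, also lay wholly under a peak in all 4 (chr3:89321769-89322018, minus strand, an upstream region of an internal start site) and holds 31 CpG. The third, of the semaphorin Sema6d, lay wholly under a peak in both E14 libraries and in E17 replicate 1 but under none in E17 replicate 2 (chr2:124089719-124089968, plus strand, 9 CpG). The fourth, of the semaphorin Sema4a, lay wholly under a peak in both E14 libraries and under none at E17 (chr3:88459102-88459351, minus strand, an upstream region of an internal start site), and holds 3 CpG. The fifth, of the netrin receptor Neo1, was under no peak in any library (chr9:59036442-59036691, minus strand) although it holds 45 CpG, nearly as many as that of Epha8.
Epha8: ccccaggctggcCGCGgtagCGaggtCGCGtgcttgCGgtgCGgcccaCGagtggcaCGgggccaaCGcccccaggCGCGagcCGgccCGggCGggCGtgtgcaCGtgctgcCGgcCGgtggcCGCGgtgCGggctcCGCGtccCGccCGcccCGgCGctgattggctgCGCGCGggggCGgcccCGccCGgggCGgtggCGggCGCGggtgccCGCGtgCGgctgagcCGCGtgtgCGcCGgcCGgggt
Efna3: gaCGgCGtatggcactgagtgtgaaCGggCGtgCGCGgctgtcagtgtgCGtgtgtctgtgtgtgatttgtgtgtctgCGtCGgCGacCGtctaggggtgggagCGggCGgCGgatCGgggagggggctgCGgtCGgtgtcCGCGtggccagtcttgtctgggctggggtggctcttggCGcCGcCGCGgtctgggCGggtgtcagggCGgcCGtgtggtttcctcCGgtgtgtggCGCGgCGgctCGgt
Sema6d: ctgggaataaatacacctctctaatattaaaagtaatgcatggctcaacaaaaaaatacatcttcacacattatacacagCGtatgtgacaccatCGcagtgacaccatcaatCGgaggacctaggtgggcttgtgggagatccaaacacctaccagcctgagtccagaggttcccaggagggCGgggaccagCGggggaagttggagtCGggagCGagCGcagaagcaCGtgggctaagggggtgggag
Sema4a: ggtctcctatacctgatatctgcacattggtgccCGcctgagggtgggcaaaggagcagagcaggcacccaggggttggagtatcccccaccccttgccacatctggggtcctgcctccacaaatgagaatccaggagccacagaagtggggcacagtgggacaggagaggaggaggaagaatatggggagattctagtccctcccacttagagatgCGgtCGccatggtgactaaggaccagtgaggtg
Neo1: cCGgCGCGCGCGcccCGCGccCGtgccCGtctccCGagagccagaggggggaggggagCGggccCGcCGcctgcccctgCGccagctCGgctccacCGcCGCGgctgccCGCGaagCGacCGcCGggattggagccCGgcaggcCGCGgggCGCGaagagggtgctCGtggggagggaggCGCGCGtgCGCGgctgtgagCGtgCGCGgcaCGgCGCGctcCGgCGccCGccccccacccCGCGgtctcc

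A peak in both E14 libraries was found at 33 of the 69 genes (47.8%), against 20.2% of all autosomal protein-coding genes. Both E17 libraries had a peak at 19 of them (27.5%, against 12.7% of all genes). These were also the 19 with a peak in all 4 libraries (12.6% of all genes). At 10 genes (14.5%) a peak was present in both E14 libraries and absent from both at E17, against 4.72% of all genes. The opposite, a peak in both E17 libraries and in neither at E14, was found at 0 of the 69 genes and at 20 genes in all (0.0961%). No peak in any library was found at 29 genes (42%), against 73.4% of all genes. The remaining 11 genes had a peak in both E14 libraries and E17 replicate 1 (4 genes) or in 1 E14 library with or without E17 replicate 1 (7 genes). By library, 39 and 34 of the genes had a peak at E14 and 25 and 19 at E17.

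Set against the genes that were marked to begin with, the step from E14 to E17 was near that of genes in general. Of the 33 genes with a peak in both E14 libraries, 10 had none at E17 (30.3%, against 23.4% of all genes marked in both E14 libraries), and 19 had one in both (57.6%, against 62.3%). In lists cut to the same number of peaks, 4 of 25 had none at E17 (16%, against 11.5% of all genes). Both differences in share were small beside that in how many genes were marked at E14, and none of the 3 was tested.

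**Figure D1:**
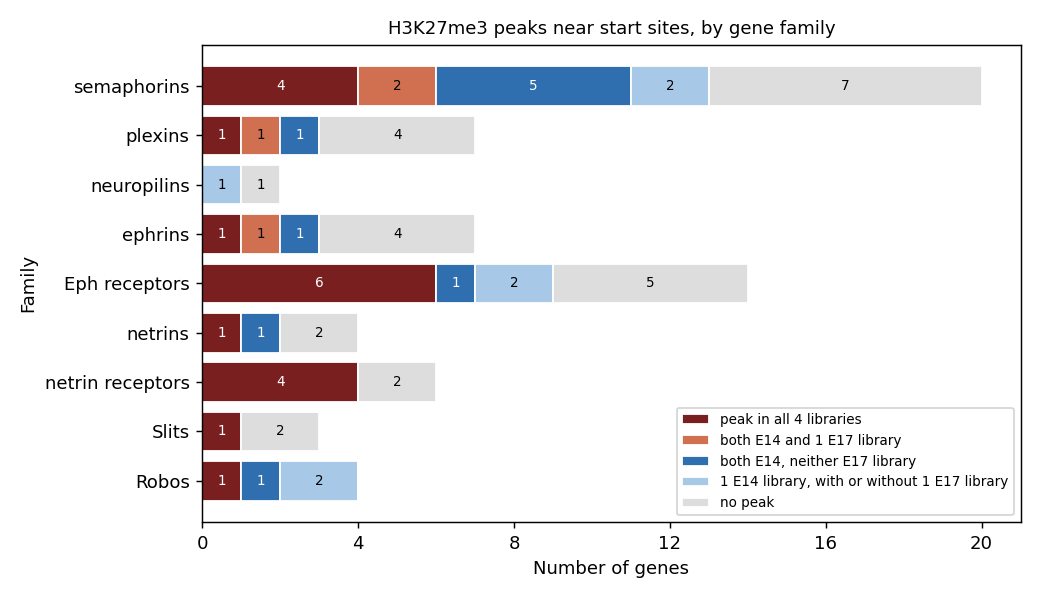
Number of genes in each family (x axis) by the libraries in which a peak lay within 3000 bp of a start site. The Eph receptors (6 of 14) and the netrin receptors (4 of 6) hold 10 of the 19 genes with a peak in all 4 libraries, and the semaphorins hold 5 of the 10 genes with peaks in the E14 libraries alone.

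Covered length summed over the 69 genes was 154 and 120 kb in the E14 libraries and 82.1 and 60.3 kb in the E17 libraries. The mean was 137 ± 24.6 kb (SD, n = 2) at E14 and 71.2 ± 15.4 kb (SD, n = 2) at E17, a decrease of 48.1%. Over all autosomal protein-coding genes the decrease was 46.1%, and over the genes marked in all 4 libraries it was 34.9% for the 19 guidance genes and 34.8% for all 2613 genes. The decrease was 44.1% in lists cut to the same number of top peaks (38.8% over all genes). In lists cut to the same total length it turned into an increase (-11.9%, against -1.72% over all genes). There Dcc, Ephb4, Unc5a and Unc5c were longer in both E17 libraries than in both at E14, and Epha10, Epha6 and Sema5b were longer by their means only. How many of all genes were longer in that setting was not counted. Taken gene by gene, covered length was shorter in both E17 libraries than in both E14 libraries at 29 of the 69 genes (16.9% of all genes) and longer in both at 0 (0.183% of all genes). Among the 33 genes with peaks in each E14 library, 29 were shorter (87.9%, against 83.9% of all genes so marked), and among the 19 marked in all 4 libraries, 15 were (78.9%, against 77.6%). With 2 libraries against 2, an exact permutation test (two-sided) has 3 splits and cannot give a p below 0.333, so no single gene can pass a threshold of 0.05, and the values below are given library by library.

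**Figure D2:**
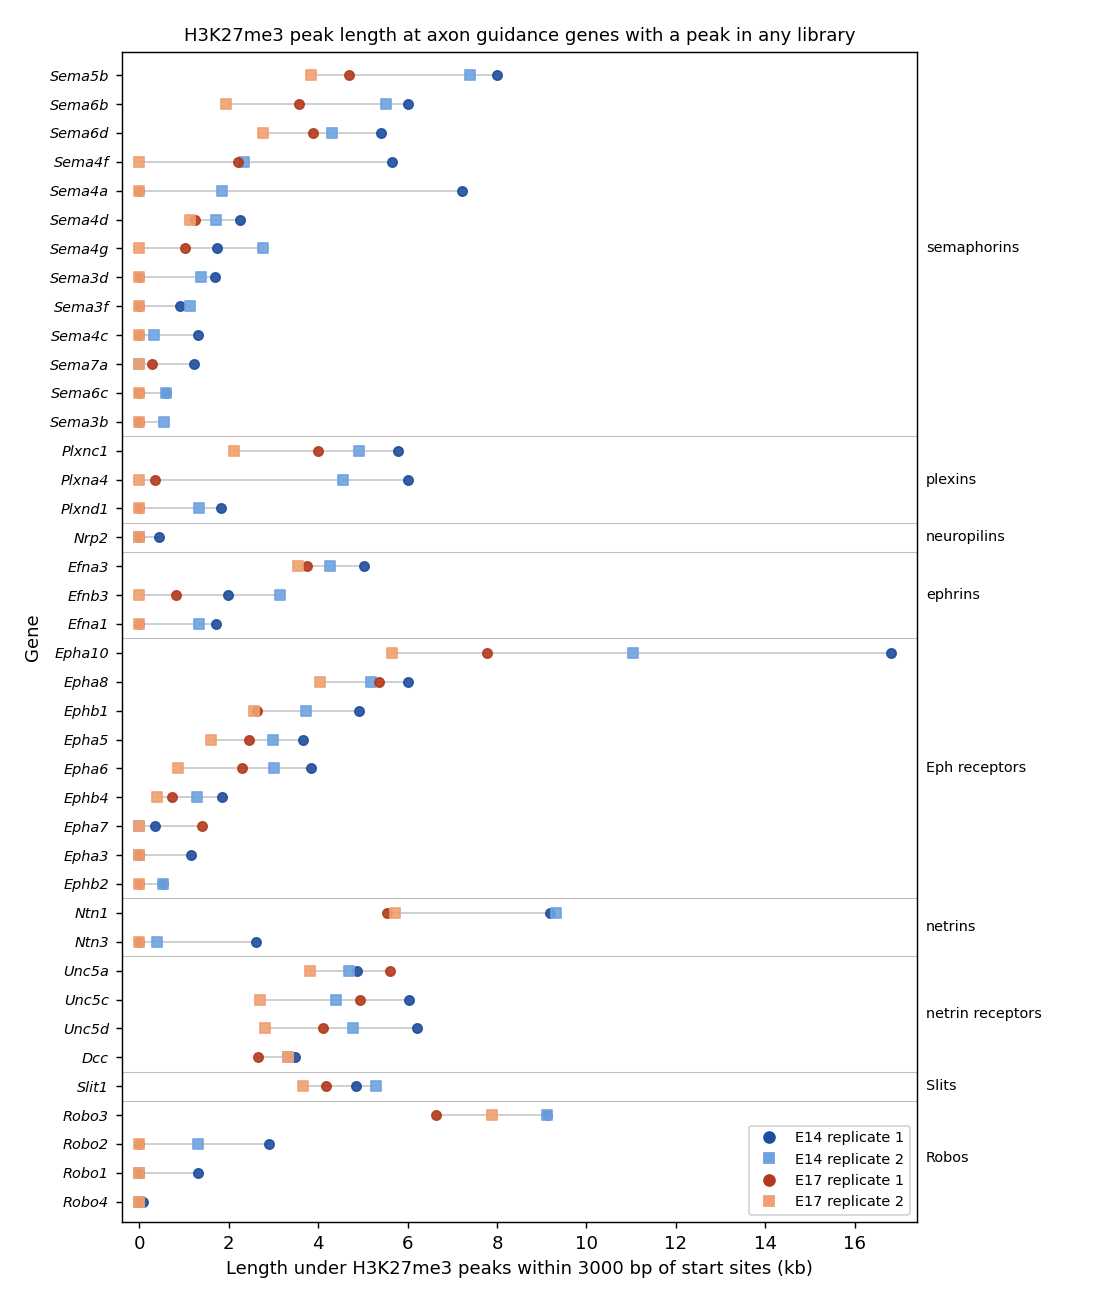
Covered length in kb (x axis) within 3000 bp of the start sites of the 40 guidance genes with a peak in any library (y axis, grouped by family), with 1 point per library; a gray line joins the lowest and highest. The E17 points lie to the left of both E14 points at 29 of the genes, and the groups overlap at Epha8, Dcc, Unc5a and Unc5c among the genes marked in all 4 libraries.

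Among the semaphorins, 11 of 20 had a peak in both E14 libraries and 4 still had one in both E17 libraries. Sema5b, a transmembrane semaphorin with thrombospondin repeats, had the longest coverage of the family, with 8002 and 7388 bp at E14 and 4699 and 3841 bp at E17. The mean fell by 44.5%, and both E17 libraries lay well below both E14 libraries. Its peaks lay on either side of the main start site and also near internal start sites far downstream, where a peak was called in each library, and the main start itself was under none. Sema6b, a class 6 transmembrane semaphorin, had 6001, 5508, 3559 and 1929 bp in the same order of libraries, a decrease of 52.3%. A single peak of 24374 bp in E14 replicate 1 and of 21148 bp in replicate 2 ran over its start, and at E17 the widest peak within 3000 bp of a start site was 11208 and 1929 bp, with further peaks upstream inside the same stretch in both libraries. In 1 library a peak near its starts is shared with the neighboring gene Tnfaip8l1. Sema6d fell from 5398 and 4311 bp to 3888 and 2771 bp, and Sema4d, a transmembrane ligand of plexin B receptors, had 2247, 1722, 1247 and 1128 bp. In each of these 4 genes the 2 stages did not overlap.

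The semaphorins with peaks in both E14 libraries and neither E17 library were Sema3d, Sema3f, Sema4a, Sema4c and Sema6c. Sema4a, a transmembrane semaphorin studied mainly in immune cells and the retina, had 7224 bp in E14 replicate 1 and 1857 bp in replicate 2, so its replicates differed by more bases than those of the other 4. The peak nearest the main start covered 5 of its 17 annotated start sites in replicate 1 and 4 in replicate 2, and the sequence shown for it lies under this peak. Sema3d and Sema3f, secreted ligands that act through neuropilins, had 1683 and 1368 bp and 914 and 1132 bp. The Sema3d peaks began 315 and 235 bp downstream of its start, and those of Sema3f ran over it. Sema4c had 1309 and 318 bp upstream of its start, and Sema6c had 589 and 595 bp, from a peak that began 12712 and 12706 bp downstream of the main start, near an internal start site. When start sites of protein-coding transcripts alone were used, Sema6c was the 1 gene to leave the group of 10.

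Sema4f and Sema4g had peaks in both E14 libraries and in 1 library at E17. Covered length at Sema4f was 5660, 2340, 2213 and 0 bp and at Sema4g 1730, 2766, 1027 and 0 bp. A peak at Sema4f is shared with its neighbor M1ap. Of the classes, the secreted class 3 had 2 of 7 genes marked in both E14 libraries and none in both at E17, while class 4 had 5 of 6 and class 6 had 3 of 4 in both E14 libraries. Sema3b and Sema7a had a peak in 1 E14 library, Sema7a with a further 290 bp in E17 replicate 1. Sema3a, Sema3c, Sema3e, Sema3g, Sema4b, Sema5a and Sema6a had none.

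Among the receptors of semaphorins, 3 of 7 plexins and neither of the 2 neuropilins had a peak in both E14 libraries. Plxnc1, the receptor of Sema7a, had 5777, 4912, 3985 and 2111 bp and was the 1 plexin marked in all 4 libraries, with a mean decrease of 43.0%. In E14 replicate 1 a single peak of 7413 bp ran across its start, and in each of the other libraries there was a peak on either side of it. Plxna4, a receptor that pairs with neuropilins on axons, had 6001 bp in E14 replicate 1, the whole window around its main start, 4549 bp in replicate 2, 340 bp in E17 replicate 1 and 0 bp in E17 replicate 2. Plxnd1, the vascular receptor of class 3 semaphorins, had 1824 and 1334 bp, beginning 354 and 432 bp downstream of its start, and none at E17. By fold enrichment, the ratio of the pileup in a peak to the local background, these Plxnd1 peaks stood at percentiles 90.8 and 83.2 of their lists. They were therefore not among the weak peaks of the E14 lists. Nrp2 had 429 bp in E14 replicate 1 only, and Nrp1, Plxna1, Plxna2, Plxnb1 and Plxnb2 had no peak.

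Of the 7 ephrins, the membrane-bound ligands of Eph receptors, Efna3 was the 1 with a peak in all 4 libraries. Covered length there was 5018, 4258, 3744 and 3542 bp, a mean of 4638 ± 537 bp (SD, n = 2) at E14 and 3643 ± 143 bp (SD, n = 2) at E17, and the decrease was 21.5% with no overlap of the stages. Its main peak had fold enrichments of 9.08, 8.62, 5.41 and 5.81, at percentiles 99.9, 99.7, 98.4 and 99.4 of the 4 lists, the highest of any of the 69 genes in each library. This peak lay over the body of the gene, from 409 bp downstream of the start to 4152 bp in E17 replicate 1, for example, and over the sequence printed for it. Efnb3, an ephrin known as a midline repellent of axons, had 1992, 3145, 813 and 0 bp. In 1 library a peak there was shared with Wrap53. Efna1, an ephrin of endothelial cells among others, had 1717 and 1338 bp at E14 and none at E17. Efna2, Efna4, Efna5 and Efnb2 had none near their starts.

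The Eph receptors had the most genes marked throughout, with 7 of 14 in both E14 libraries and 6 of these in all 4. Epha10, a receptor without kinase activity, had the longest coverage of all 69 genes, with 16809 and 11038 bp at E14 and 7777 and 5643 bp at E17 over the windows of its 3 start sites. The mean was 13924 ± 4081 bp (SD, n = 2) against 6710 ± 1509 bp (SD, n = 2), a decrease of 51.8%. In E14 replicate 1 a single peak of 27063 bp ran over all 3 start sites, and in the other libraries the stretch was called as several separate peaks, of which 5 in E14 replicate 2 and 3 in each E17 library lay within 3000 bp of a start site. Epha8, an ephrin-A receptor of the brain, kept most of its coverage near the start, with 6001, 5192, 5359 and 4032 bp. There the decrease was 16.1% and the stages overlapped, but the window was wholly covered in E14 replicate 1. Across the whole Epha8 gene, with 3000 bp on either side, 14052, 9778, 6709 and 4201 bp lay under peaks, without overlap of the stages. The start of Epha8 lay under a peak in every library.

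Epha6 had 3838, 3000, 2289 and 852 bp, a decrease of 54.1%, and the peak in every library ran over the start of the gene. Ephb4, the receptor of Efnb2 on veins, had the largest relative decrease of the 19, at 64.0%, from 1840 and 1281 bp to 728 and 397 bp, all of it upstream of the start. Epha5 had 3668, 2991, 2454 and 1609 bp, and Ephb1 had 4922, 3737, 2632 and 2574 bp. At all 4 of these receptors both E17 libraries lay below both E14 libraries. Ephb2 was the Eph receptor with peaks at E14 only, with 537 and 524 bp. Within 3000 bp of a start site its E14 peaks did not overlap each other, since that of replicate 1 (chr4:136838452-136839792) lay farther upstream of the start than that of replicate 2 (chr4:136836865-136837388), and they stood at percentiles 50.3 and 22.1. Epha3 had 1161 bp in E14 replicate 1 alone, and Epha7 had 348 bp there and 1394 bp in E17 replicate 1. Epha1, Epha2, Epha4, Ephb3 and Ephb6 had no peak.

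Ntn1, the secreted netrin that attracts commissural axons, had coverage of 9192 and 9323 bp at E14 and 5540 and 5712 bp at E17. The mean was 9258 ± 92.6 bp (SD, n = 2) against 5626 ± 122 bp (SD, n = 2), so that the decrease of 39.2% was far larger than the difference between replicates. A peak ran over the main start in every library, 7358 and 7271 bp wide at E14 and 4242 and 4111 bp wide at E17. Further peaks lay between 7935 and 18004 bp downstream of the main start in all 4 libraries. Ntn3 had 2615 and 385 bp at E14 and none at E17. Its start sites lie within reach of those of Tbc1d24, with which a peak is shared. Ntn4 and Ntn5 had no peak.

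Most receptors of netrin stayed marked in the full lists. Dcc, Unc5a, Unc5c and Unc5d had a peak in all 4 libraries. With peaks of a −log10 q of at least 5, Unc5a and Unc5c had peaks in both E14 libraries and in neither at E17. Summed covered length near the start sites of the 6 netrin receptors fell by 20.8%. It fell by 48.1% over all the guidance genes and by 34.9% over the 19 marked in all 4 libraries. The decrease was 16.1% between the first replicates and 26.4% between the second, and the Slits in the first pair (13.8%) and the Robos in the second (24.5%) fell by less. Dcc, the receptor through which netrin attracts, had 3483, 3318, 2660 and 3323 bp, so that E17 replicate 2 matched E14 replicate 2. Unc5a had 4868, 4691, 5599 and 3808 bp, the smallest decrease of the 19 at 1.6%, with E17 replicate 1 above both E14 libraries. Unc5c had 6037, 4399, 4927 and 2698 bp, and Unc5d had 6210, 4773, 4103 and 2808 bp. Near the start sites the stages overlapped at Dcc, Unc5a and Unc5c and did not at Unc5d. Unc5d also had the largest decrease of the 4 there, 37.1%. Across the whole Unc5a gene, with 3000 bp on either side, 11771, 9787, 7910 and 6142 bp lay under peaks. The stages did not overlap at Unc5a on that measure, but they still did at Dcc and Unc5c. Neo1, a receptor of netrins and repulsive guidance molecules, and Unc5b, a receptor of vessel endothelium, had no peak. Whether the netrin receptors differed from the other families was not tested.

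Among the Slits and Robos, Slit1 and Robo3 had peaks in all 4 libraries. Slit1, a secreted repellent of the brain, had 4839, 5298, 4171 and 3659 bp near its start sites, a decrease of 22.8% with no overlap of the stages. Robo3, the receptor that lets commissural axons cross the midline, had 9113 bp in both E14 libraries and 6625 and 7878 bp at E17. A peak of 10929 and 10354 bp ran over its start at E14, and peaks of 6003 and 8070 bp ran over it at E17, at percentiles 98.3, 97.8, 97.6 and 91.4 by fold enrichment. Robo2, a Slit receptor of axons, had 2899 and 1321 bp at E14 and none at E17, with the peaks running over the main start. Robo1 had 1309 bp in E14 replicate 1 only. Robo4, the endothelial Robo, had 77 bp within 3000 bp of a start in E14 replicate 1 only. Slit2 and Slit3 had no peak.

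**Figure D3:**
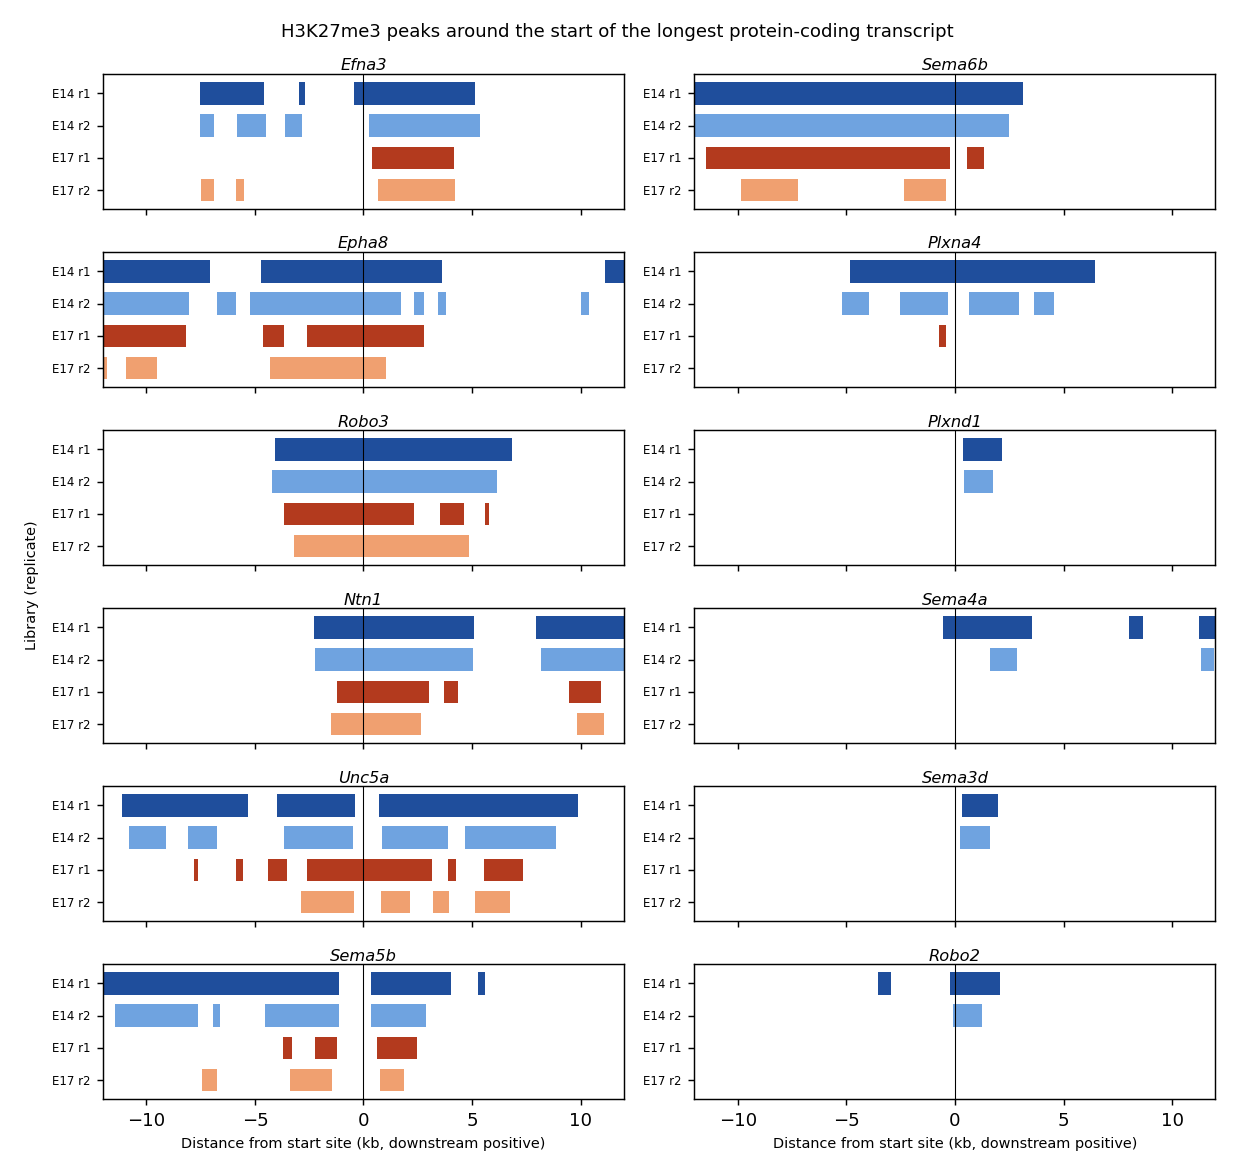
Peaks in each library (rows; r1 and r2 are the replicates) from 12 kb upstream to 12 kb downstream of the start of the longest protein-coding transcript (x axis, kb) at 12 of the genes described. In the left column and at Sema6b peaks persist in both E17 libraries and are mostly shorter; Plxna4 keeps 340 bp in E17 replicate 1; Plxnd1, Sema4a, Sema3d and Robo2 have peaks within this range in the E14 libraries alone.

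Grouped by role, 17 of 34 ligands and 16 of 33 receptors had a peak in both E14 libraries. Of these, 7 of the 17 ligands had no peak at E17 (41.2%), against 3 of the 16 receptors (18.8%) and 23.4% of all genes so marked. Semaphorins made up 5 of those 7 ligands. A peak in all 4 libraries was found at 7 ligands and 12 receptors. The difference between the roles was not tested. The share was higher among ligands at the other settings run except 2, although with 2 of 11 ligands and 2 of 14 receptors it was nearly equal in lists cut to an equal number of peaks. With peaks of a −log10 q of at least 5 it was higher among receptors, at 4 of 10 ligands and 6 of 12 receptors, and in lists cut to the same total length it was 0 of 4 in both.

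The genes that lost all peaks and those that kept them differed in the rank of their peaks at E14. Both groups were defined by peaks of these same lists, and the E17 lists are shorter. Weak E14 peaks could therefore drop out first through the choice alone, so the values below only describe the groups. For the 19 genes marked in all 4 libraries, the strongest peak stood at a median percentile of 93.4 and 92.5 by fold enrichment in the E14 lists, and for the 10 marked at E14 only at 58.9 and 64.4. Over all genes the same medians were 93.3 and 90.8 for those marked in all 4 libraries and 63.7 and 52.6 for those marked at E14 only, so the guidance genes followed the general pattern. Coverage at E14 was also longer in the first set, with medians of 5398 and 4691 bp against 1700 and 1226.5 bp. Plxnd1 and Sema6c were the genes of the 10 whose peaks ranked high in both E14 libraries, at 90.8 and 83.2 for Plxnd1 and 81.0 and 92.0 for Sema6c.

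The marked stretch was not centered on the start site. Of the 19 genes with a peak in all 4 libraries, the start of the longest protein-coding transcript lay under a peak at 14 and 9 genes at E14 and at 10 and 6 at E17. The position 1000 bp downstream was under a peak at 18 and 18 genes at E14 and 16 and 15 at E17, and the position 1000 bp upstream at 15, 15, 11 and 9. Over all 2613 genes marked in all 4 libraries, the start was under a peak at 73.0%, 66.2%, 56.1% and 48.9% and the downstream position at 80.3%, 76.0%, 65.9% and 59.1%, and the position upstream at 72.5%, 63.5%, 49.1% and 40.2%. Over all these genes the share at the start thus lay between the upstream and downstream shares in each library, whereas for the guidance genes it was the lowest of the 3. This difference was not tested. For the guidance genes the shares at the downstream position were 94.7%, 94.7%, 84.2% and 78.9%.

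**Figure D4:**
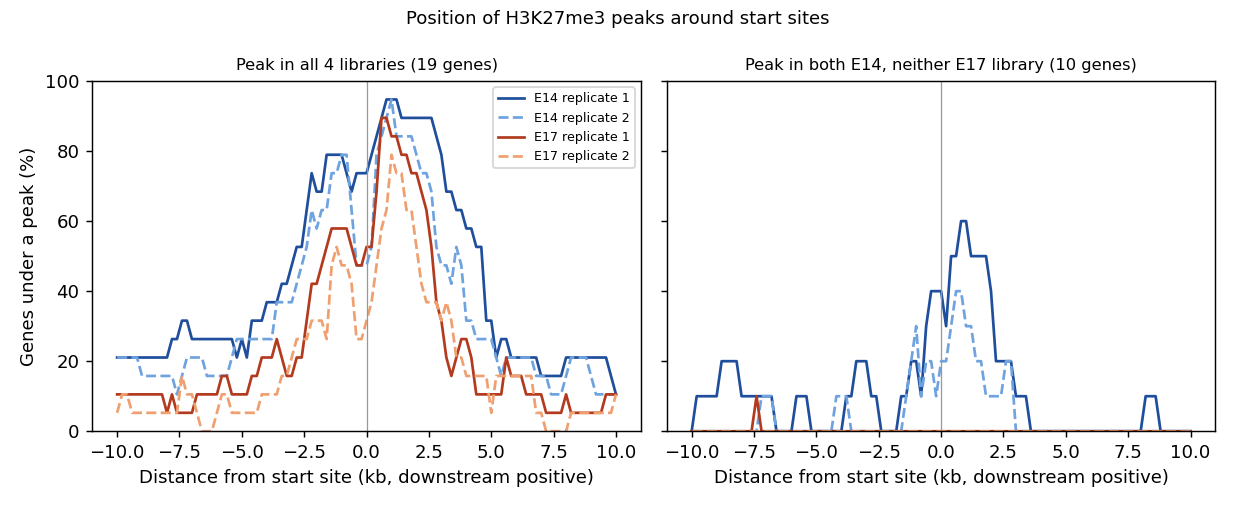
Share of genes (y axis, %) with a given position under a peak, by distance from the start of the longest protein-coding transcript (x axis, kb, downstream positive), with 1 line per library, for the 19 genes with a peak in all 4 libraries (left) and the 10 with peaks in the E14 libraries alone (right). On the left all 4 lines are highest within about 1 kb downstream of the start and lower at the start itself; the E17 lines are narrower than the E14 lines.

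CpG content at the start sites, which the choice of genes did not use, was high. In the 500 bp either side of the start of the longest protein-coding transcript, the 69 genes had a median of 67 CpG, against 45 over all autosomal protein-coding genes. By a rule of at least 50% GC and a ratio of observed to expected CpG of at least 0.6, 49 of the 69 windows were CpG-rich (71.0%), against 47.3% of all genes. Content was about the same at the genes marked in all 4 libraries and at those with no peak, and lower at those between. The median was 68 CpG at the 19 genes marked in all 4 libraries, 50.5 at the 10 marked at E14 only and 69 at the 29 with no peak, and the CpG-rich share was 78.9%, 50% and 82.8%. It was 63 CpG (50% CpG-rich) at the 4 genes marked in both E14 libraries and 1 at E17. At the 7 genes marked in 1 E14 library, with or without 1 at E17, it was 44 CpG (42.9% CpG-rich). Among the genes with no peak, Neo1 had 143 CpG, the most of the 69 genes, and Sema3a had 3, the fewest. Plxnc1 with 130 and Unc5a with 116 were the richest of the genes marked throughout, and Dcc with 38 and Ntn1 with 41 were the poorest. Over all genes the medians were 56 for those marked in all 4 libraries and 41 for those with no peak, and the CpG-rich share was 57.3% and 46.0%.

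**Figure D5:**
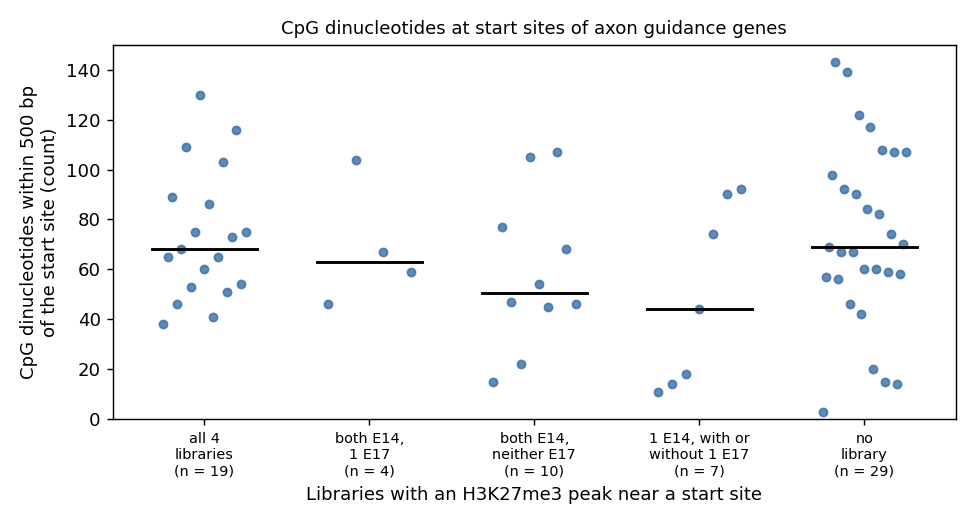
Number of CpG dinucleotides within 500 bp of the start of the longest protein-coding transcript (y axis), with 1 point per gene, by the libraries in which a peak was found (x axis); the bar is the median. The genes without a peak reach from 3 to 143 CpG and have about the same median (69) as the genes marked in all 4 libraries (68).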

How the data were processed

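H3K27me3 ChIP-seq was analyzed in 2 E14 and 2 E17 libraries of WT dermal fibroblasts. The study's methods describe dermal cells expanded in AmnioMAX, enzymatic shearing, a Kapa library kit and Illumina sequencing, whereas the sample labels name DMEM with serum, sonication and an Ion Torrent library kit. An input library is labeled and was not analyzed here. The submitters' processing notes name Bowtie2 2.3.5.1, SAMtools 1.9, MACS2 2.2.7.1, deepTools 3.5.1 and the mm10 build, which is GRCm38. The authors called broad peaks in each library separately at a q-value threshold of 0.01. Read filters and the control of the peak call are not given in the sources used here. The study states that E18.5 WT and Kdm6b knockout samples were subsampled to the read depth of its other samples. Whether this covers the libraries used here is not clear.

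In the deposited lists peaks carry a fold enrichment, which is a ratio of pileup to background, with a −log10 p-value and −log10 q-value. The deposited lists also hold a display score, which was not used. The other values were used only to rank or filter peaks within a list, because the lists give no read counts, which leaves the error of any single peak unknown.

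Genes and start sites were taken from GENCODE vM21. Each of 20807 autosomal protein-coding genes was scored in each library by peaks overlapping 3000 bp either side of any start site by at least 1 bp, and by covered length. CpG was counted in the GRCm38.p6 genome, and promoter sequences came from the RefSeq table of that build. Genes named with full values were those with peaks at 1 stage only, the longest covered gene of each family, and the 5 largest and 5 smallest decreases among genes marked in all 4 libraries. The values of other genes were added after they were seen. The members and lists were chosen with earlier results of these data known. Python 3.11.15, numpy 2.4.6, pandas 2.3.3 and matplotlib 3.10.9 were used, and the scoring was tested on simulated data, where the pattern of presence was recovered for 100% of 400 genes. Alternatives were other windows and start sites, stricter q-values and widths, lists cut to equal number or equal length, a stricter reading of the name rule, pairing by replicate number, and leaving out each library.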

Additional observations from a re-analysis of the deposited data

How the results depend on the processing

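Of 98 recomputed values for the counts over all guidance genes and the summed decrease, 90 kept to within 1.5 times of the reported count, or to within the spread between pairs of libraries, and of 789 recomputed values for families, roles and named genes, 636 did. With peaks of a −log10 q of at least 5, 7 genes had a peak in both E17 libraries in place of 19 (31.8% of those marked in both E14 libraries, against 38.3% of all genes so marked), and the summed decrease was 67.1%, against 57.0% over all genes. In lists cut to the same number of top peaks, 4 genes (Plxna4, Plxnd1, Sema4a and Sema6c) in place of 10 had peaks at E14 only, 16% of those marked at E14 against 11.5% of all genes. In lists cut to equal covered length, 1545, 2413, 4110 and 7107 peaks were kept, so that the E14 lists lost most of theirs. There 8 genes had a peak in both E14 libraries (1242 of all genes), 0 had peaks at E14 only (1.93% of those 1242), and 4 (Dcc, Ephb4, Unc5a and Unc5c, named after their values were seen) had peaks at E17 only. Also, 4 genes (Efna3, Plxnc1, Robo3 and Slit1) were shorter in both E17 libraries, and the summed decrease turned into an increase, at -11.9%, against -1.72% over all genes. The shares of all genes with peaks at E17 only, or shorter in both E17 libraries, were not counted in these lists. In that setting covered length at E17 exceeded that at E14 by 1631 bp at Epha10, 426 bp at Epha6, 562.5 bp at Ephb4 and 184.5 bp at Sema5b. The equal totals by construction leave no general decrease to be seen, and the lists do not tell whether depth or the mark made the E17 lists shorter.

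Without 1 library at a time, genes marked in both E14 libraries numbered 33 to 39, genes marked in both at E17 19 to 25, genes marked at E14 only 10 to 14, genes shorter at E17 30 to 37, genes at E17 only 0 in each case, and the summed decrease was 40.2% to 56.0%. A remaining single library stands for its stage there. With the replicate number as a block, 31 genes were shorter in both pairs and the mean decrease was 48.3%. The numbers are not said to mark a shared animal or batch, and the differences of replicate 1 from replicate 2 at the 2 stages correlated at 0.159 over 5525 genes.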

Other observations

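Other genes of the same signaling systems showed the mark as well. Of 22 further ligands, receptors and adhesion molecules of axon guidance, 12 had a peak in both E14 libraries (54.5%, against 20.2% of all genes), and all 12 were shorter in both E17 libraries, as were 83.9% of all genes so marked. Of these, 9 kept a peak in all 4 libraries (75%, against 62.3% of all genes so marked), and 3 (Rgma, Rgmb and Lrrc4c) kept one at E17 in replicate 1 alone. Rgma and Rgmb encode repulsive guidance molecules, which bind Neo1, itself without a peak, and had 723, 561, 345 and 0 bp and 1159, 1496, 748 and 0 bp. Draxin, a secreted ligand of Dcc, had 4942, 4841, 3335 and 4299 bp. Nrcam, a cell adhesion molecule of axons, had the longest coverage of this list and fell from 18176 and 12147 bp to 4237 and 1964 bp. Of 40 intracellular effectors, 11 had a peak in both E14 libraries (27.5%, near the general share of 20.2%). Of these 11, 7 were shorter in both E17 libraries, 9 had a peak in all 4 libraries (81.8%), and 2 (Ablim1 and Ablim3, actin-binding proteins) had peaks at E14 only (18.2%). Over all genes marked in both E14 libraries, 83.9% were shorter, 62.3% had a peak in both E17 libraries and 23.4% in neither. The collapsin response mediators, which act below semaphorin receptors, varied. Covered length was 2466, 3079, 445 and 460 bp at Dpysl4, 5432, 5116, 4556 and 3925 bp at Dpysl5, and 7929, 6500, 7520 and 6346 bp at Crmp1. Dpysl2 and Dpysl3 had no peak. The relatives on the X chromosome, Plxna3, Plxnb3 and Efnb1, had no peak.

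Some guidance genes had peaks only or mostly away from their start sites. Of the 29 genes with no peak near a start site, 3 (Efna2, Efna4 and Unc5cl) had one in the gene or within 3000 bp of its ends. The same share over all genes was not counted. Efna2 had no peak within 3000 bp of its start but had one at its far end in all 4 libraries. These peaks were 2935, 2882, 1872 and 1743 bp wide and began 10288, 10110, 10456 and 10539 bp downstream of the start. The gene is 10529 bp long, so they lay mostly beyond its end, and that of E17 replicate 2 lay wholly beyond it. At percentiles 94.5 and 96.6 by fold enrichment, the E14 peaks were among the stronger ones of their lists. Robo4 had peaks of 3202, 2978, 1319 and 454 bp inside the gene, beginning 4904 to 6043 bp downstream of its main start, of which only 77 bp in E14 replicate 1 fell within 3000 bp of a start site. Across the whole Slit1 gene, with 3000 bp on either side, 44123, 37679, 17610 and 14911 bp lay under peaks, against 4839, 5298, 4171 and 3659 bp near its start sites, so that most of its marked length and most of the difference between stages lay away from the starts.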
